A study of Mus musculus with 36 samples.

Results

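CXCR2 is the receptor by which neutrophils follow a family of CXC chemokines, and the set described here is its gene Cxcr2 with 4 genes for its ligands, Cxcl1, Cxcl2, Cxcl3 and Cxcl5. The 5 genes were chosen by name, for this receptor-ligand relation, but with earlier results of these data known. All 5 are among the 988 genes of the immune and cancer panel that was read. The study used the panel to ask what mast cells do in colon tumours and in the steps that precede them. It read 36 samples in 9 groups, of which 34 libraries were analysed.

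Tumours of the colon came from sash mice (n = 5) and from wild-type mice (n = 5), both C57BL/6, at 32 weeks of age. These mice had been given azoxymethane (AOM), a carcinogen that acts on the colon epithelium, intraperitoneally at 10 mg/kg in 6 weekly doses, and the tumours were taken 18 weeks after the last dose. Colon with preneoplastic lesions came from sash mice (n = 3) and wild-type mice (n = 3) at 14 weeks, after AOM for 3 weeks and 3 more weeks without it. A further set of wild-type C57BL/6 mice of 14 weeks received cromolyn, a drug that keeps mast cells from releasing their granules, together with AOM (n = 3), cromolyn for 3 weeks once AOM had ended (n = 3), or AOM only (n = 3). AOM was thus given to every one of these 7 groups, those called AOM only and wild type included. Tumours of MC-38, a mouse colon cancer line grown as an allograft, came from sash mice (n = 5 analysed) and wild-type mice (n = 4 analysed), both labelled as given saline. Their labels give no age.

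Sash mice carry a regulatory mutation of Kit, the receptor for stem cell factor, and lack mast cells as adults. Kit also acts in other cells, such as blood progenitors and the pacemaker cells of the gut, so the mutation does not single out mast cells. Kit itself stood at 49.7 to 99.3 CPM (counts relative to the library total) in sash tumours, against 95.3 to 476 CPM in wild-type tumours, at 114 to 143 CPM in sash lesions, against 334 to 509 CPM in wild-type lesions, and at 2.05 to 23.2 CPM in sash MC-38 tumours, against 5.97 to 18.1 CPM in wild-type MC-38 tumours. Cpa3, the carboxypeptidase of mast cell granules, stood at 0 to 9.92 CPM in sash tumours, against 11.4 to 84.6 CPM in wild-type tumours, at 0 in all sash lesions, against 1.51 to 22.6 CPM in wild-type lesions, and at 3.23 to 6.64 CPM in sash MC-38 tumours, against 259 to 694 CPM in wild-type MC-38 tumours. Library totals ran from 449880 to 1264354 counts. Epcam, the 1 epithelial marker of the panel, was high in every colon and AOM tumour library (9591 to 34760 CPM) and close to absent in the MC-38 tumours (0 to 3.32 CPM). One library stood apart: wild-type tumour 4 held 14905 CPM of Car4, an enzyme of mature surface colonocytes, where tumours 1, 2, 3 and 5 of that genotype held 230 to 3868 CPM, and it was the lowest tumour library for all 5 genes of the CXCR2 set. The calls between tumours, the share of panel counts taken by the ligands and the correlations between genes are given with and without it.

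Chemokines that carry a glutamate-leucine-arginine motif before their first cysteines bind CXCR2 and draw neutrophils out of the blood and into tissue. CXCL1, CXCL2 and CXCL3 are close relatives, made by macrophages, stromal cells and epithelium after signals such as interleukin-1, interleukin-17, tumour necrosis factor and bacterial products. CXCL5 is made largely by epithelial cells. CXCR2 itself is carried mainly by neutrophils, so in the colon the ligands can come from the tissue and the receptor mostly from cells that have entered it.

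In the mouse genome the 4 ligand genes lie in 1 cluster on chromosome 5, in the order Cxcl5, Ppbp, Pf4, Cxcl3, Cxcl15, Cxcl1 and Cxcl2, and Cxcr2 lies on chromosome 1. The 120 bases before the start of 4 of the 5 genes follow, from RefSeq on GRCm38.p6, because the 3 close relatives among the ligands share a run of letters there. The promoter of Cxcl5 was not analysed here, so nothing is said of its letters. The stretches are chr5:90891125-90891244 for Cxcl1, chr5:90903779-90903898 for Cxcl2, chr5:90785981-90786100 for Cxcl3 and chr1:74153874-74153993 for Cxcr2, all on the plus strand and written 5′ to 3′, with matches to the kappaB motif in capitals. That motif is the one bound by NF-kappaB, a factor that inflammatory signals switch on.
Cxcl1: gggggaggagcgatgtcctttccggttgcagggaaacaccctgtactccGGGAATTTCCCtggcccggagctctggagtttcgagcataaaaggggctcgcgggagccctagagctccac
Cxcl2: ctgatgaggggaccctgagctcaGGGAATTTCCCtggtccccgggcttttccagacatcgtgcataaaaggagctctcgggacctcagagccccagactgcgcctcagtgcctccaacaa
Cxcl3: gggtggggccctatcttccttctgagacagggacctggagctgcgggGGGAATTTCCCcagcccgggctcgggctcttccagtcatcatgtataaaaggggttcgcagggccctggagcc
Cxcr2: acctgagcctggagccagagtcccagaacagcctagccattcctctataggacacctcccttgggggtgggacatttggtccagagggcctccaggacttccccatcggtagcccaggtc

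Cxcl1, Cxcl2 and Cxcl3 each held the same 11 letters, GGGAATTTCCC, which begin 71, 97 and 73 bases before their starts. The run contains 2 overlapping matches to the kappaB motif, 1 on each strand. Such a match on either strand was found in 3.9% of all 32851 promoters (1281) and in 9.21% of the 945 promoters of panel genes (87), within 250 bases of the start. The 11-letter run itself was found in 14 promoters (0.0426%). The only other run of 8 or more letters common to the 3 ligands was ATAAAAGG, which begins 34, 57 and 29 bases before their starts and which 507 promoters (1.54%) also hold. No kappaB match lay in the 250 bases before Cxcr2. These are matches of letters, and no measurement of factor binding was made.

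**Figure D1:**
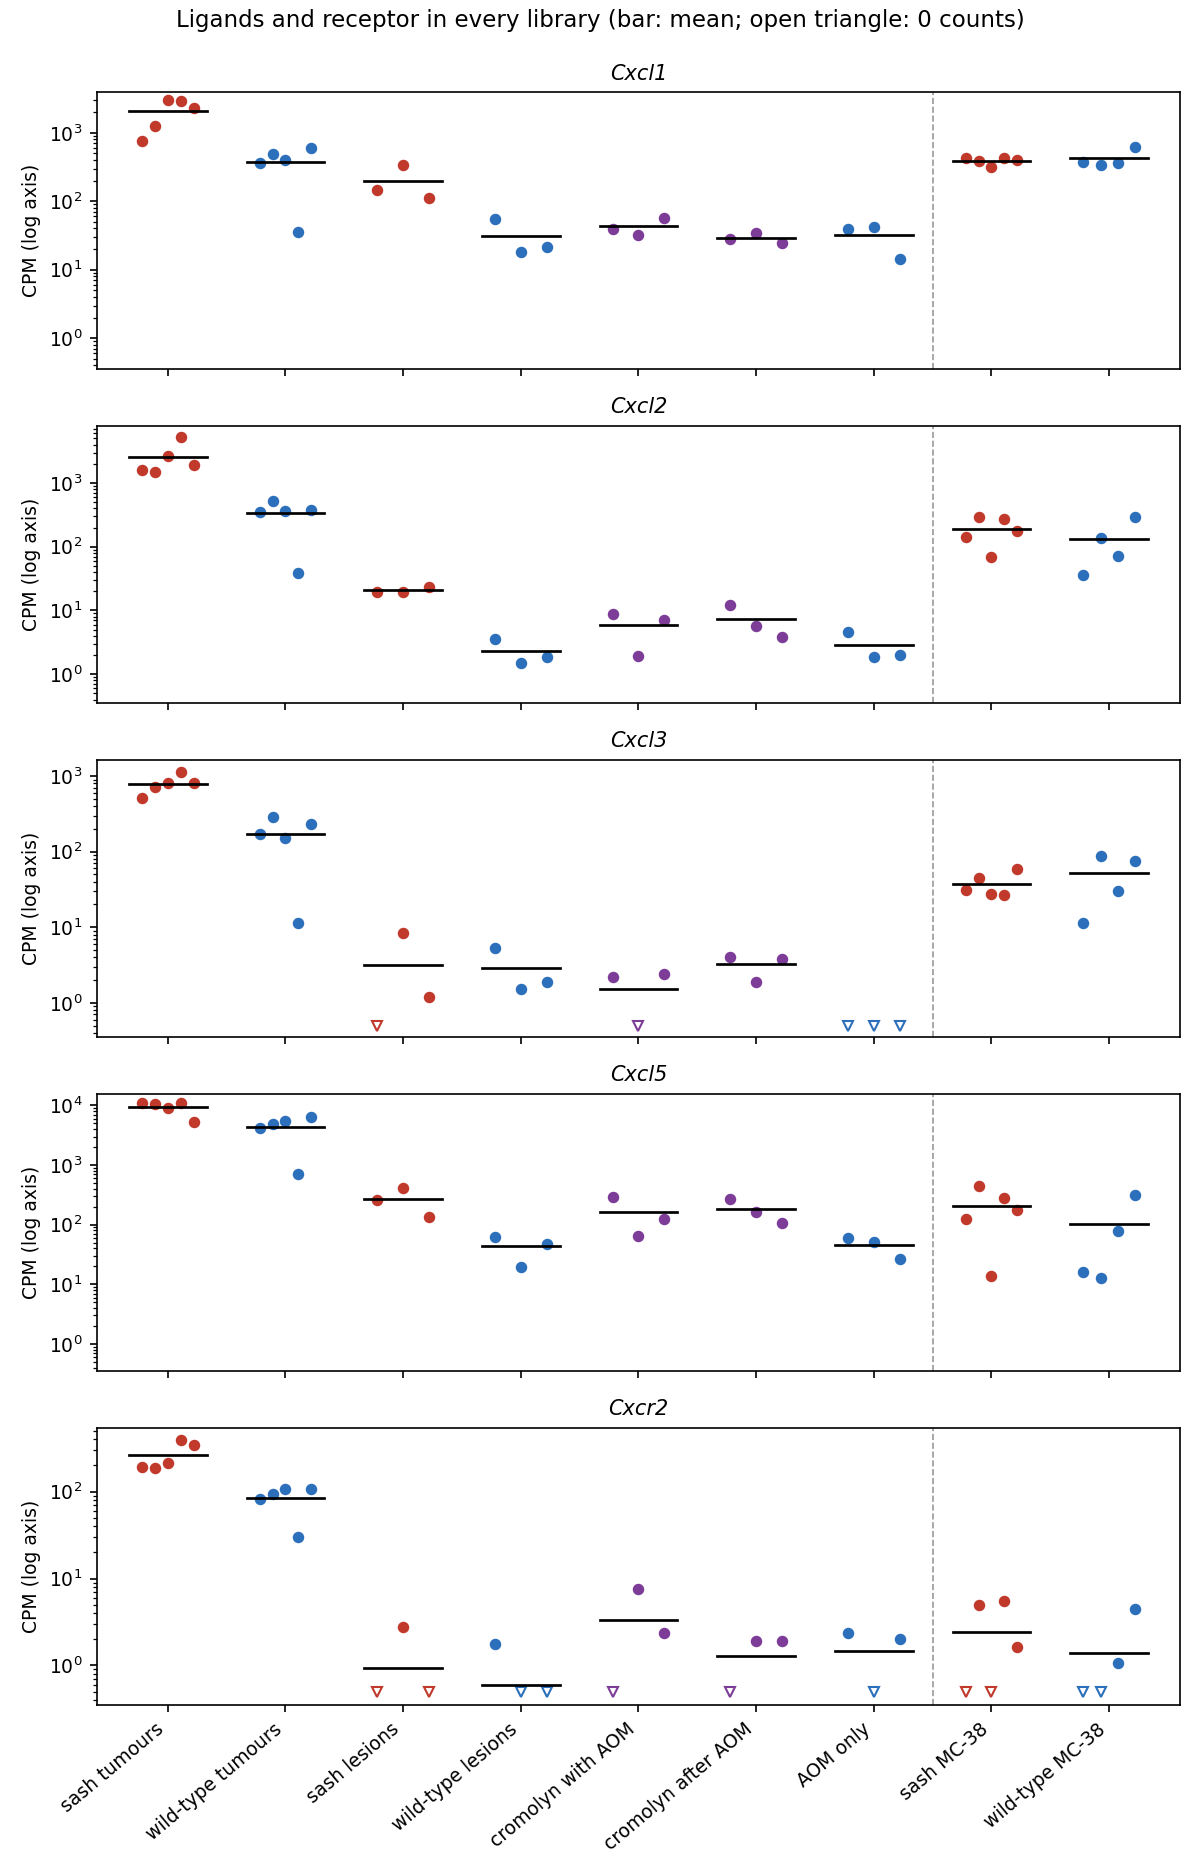
Level of the 4 ligands and of the receptor in each library of the 9 groups, in CPM on a log axis, with 1 point per library and a bar at the group mean; open triangles are libraries with 0 counts, and the dashed line sets off the MC-38 tumours, which were scaled separately. All 5 genes stand highest in the sash tumours, and Cxcr2 is near 0 outside the AOM tumours.

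In AOM tumours all 4 ligands and the receptor had higher mean levels in sash mice than in wild-type mice, but no gene of the panel passed the test across all genes. The levels are CPM scaled over all libraries of the AOM experiments, and a level of 1 gene cannot be set against that of another, because each amplicon of such a panel is copied with its own efficiency. Since these are whole tissue pieces, a change in the number of cells of a type and a change in RNA per cell cannot be told apart.

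Cxcl1, a ligand made by many cell types after inflammatory signals, had 767, 1276, 3016, 2951 and 2279.5 CPM in sash tumours, against 366, 485, 404, 35.2 and 604 CPM in wild-type tumours. Every sash tumour was above every wild-type tumour, and the means were 2058 ± 1005 CPM in sash tumours and 379 ± 213 CPM in wild-type tumours (SD, n = 5 each). This gave a log2 difference of 2.41 (SE 0.61) and an adjusted p of 0.0740 by edgeR's quasi-likelihood test with Benjamini-Hochberg adjustment, which is the test behind every adjusted p here.

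Cxcl2, a ligand made above all by macrophages and neutrophils, had 1613, 1463, 2630.1, 5231 and 1895 CPM in sash tumours, against 349.9, 531, 368, 39.3 and 373 CPM in wild-type tumours. The groups did not overlap. The log2 difference, 2.92 (SE 0.59, adjusted p = 0.0684), was the highest of the 5 genes.

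Cxcl3, the least studied of these close relatives, had 506, 709.5, 804, 1117 and 801 CPM in sash tumours, against 170.03, 289, 150.1, 11.4 and 230.4 CPM in wild-type tumours. Again the groups did not overlap, and the lowest sash tumour was above the highest wild-type tumour. On the log2 scale the difference was 2.18 (SE 0.58, adjusted p = 0.0779).

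Cxcl5, the ligand of epithelial origin, had 10986, 10380.1, 8935, 11173 and 5267 CPM in sash tumours, against 4113, 4783, 5381, 705 and 6435 CPM in wild-type tumours. Here the groups overlapped, since sash tumour 5 lay below wild-type tumours 3 and 5, and 4 of 5 sash tumours were above every wild-type tumour. The log2 difference was the lowest of the set, 1.10 (SE 0.46, adjusted p = 0.212).

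Cxcr2, the receptor, had 193, 188, 212, 390.2 and 348 CPM in sash tumours, against 82.1, 93.0, 107, 30.0 and 106 CPM in wild-type tumours. Every sash tumour was above every wild-type tumour, with means of 266 ± 95.4 CPM in sash tumours and 83.7 ± 31.8 CPM in wild-type tumours (SD, n = 5 each). As a log2 difference this was 1.65 (SE 0.36, adjusted p = 0.0684).

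Of the 797 genes tested between the tumours 0 were called (0%) by edgeR at an adjusted p below 0.05, with 159 at an unadjusted p below 0.05, all 5 genes of the set included. DESeq2 called 82 of the 946 genes it tested (8.67%) and a fit of all 25 libraries 88 of 847 (10.4%), and each of these called Cxcl1, Cxcl2, Cxcl3 and Cxcr2. No overlap, with the sash tumours above, was found for 31 of the 797 genes (3.89%), a share that holds 4 genes of the set. Without wild-type tumour 4, the library rich in the colonocyte enzyme Car4, edgeR called 7 of 808 genes (0.866%), of which 4 were Cxcl1, Cxcl2, Cxcl3 and Cxcr2, at log2 differences of 2.12, 2.64, 1.88 and 1.43. Without sash tumour 1 it called 17 of 808 (2.1%), Cxcl2 and Cxcr2 among them.

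The 4 ligands did not keep the same proportions in the tumours of the 2 genotypes. Of all ligand counts, Cxcl5 held 51.4% to 79.2% in sash tumours (median 58.1%), against 78.6% to 89.2% in wild-type tumours (median 84.2%). Cxcl5 counts were 2.14 to 7.10 times those of Cxcl2 in sash tumours, against 9.0 to 17.9 times in wild-type tumours, without overlap. For each count of Cxcl1 there were 2.31 to 14.3 counts of Cxcl5 in sash tumours, against 9.87 to 20.1 in wild-type tumours. Sash tumour 1, the one with the lowest Cxcl1, had the ratio of 14.3 and lay among the wild-type values. The differences follow from the larger log2 differences of Cxcl1, Cxcl2 and Cxcl3 than of Cxcl5 and are given as a description. Together the 4 ligands took 1.06% to 2.17% of all panel counts in sash tumours, against 0.0743% to 0.816% in wild-type tumours, or 0.529% to 0.816% without tumour 4.

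**Figure D2:**
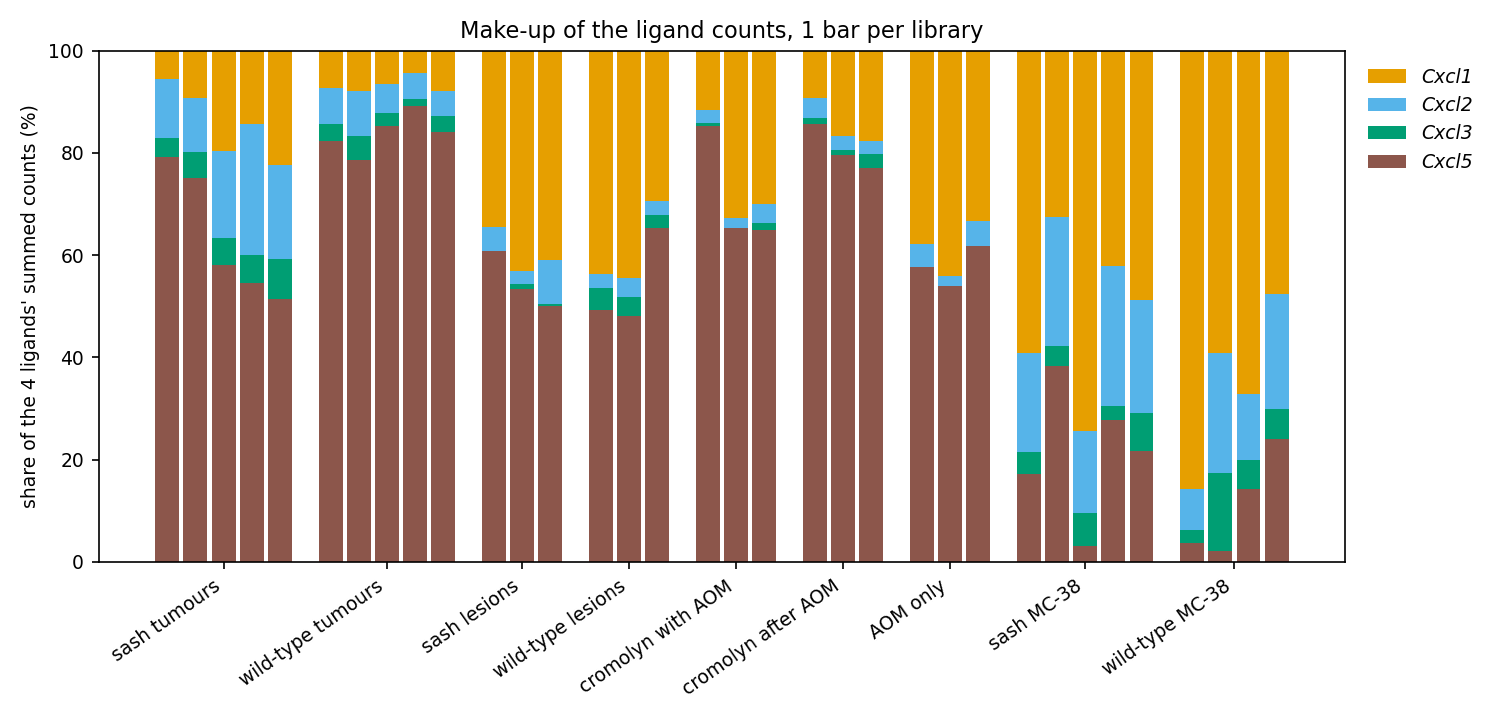
Share of each ligand among all counts of the 4 ligands in each library, in percent, as stacked bars by group. Cxcl5 takes most of the ligand counts in the AOM tumours and in the cromolyn groups, whereas Cxcl1 leads in most MC-38 tumours. Amplicons differ in efficiency, so a share can be compared between groups but not between genes.

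Genes that act before or beside the ligands were also higher in sash tumours by value, though none passed. Of 11 genes on the panel for cytokines that induce the ligands and their receptors, 9 were tested, 0 were called and 8 were above 0 (median log2 difference 2.11, against -0.04 over all genes tested). Il1b, the gene of interleukin-1 beta, had 859, 1989, 2873, 4869 and 2630.2 CPM in sash tumours, against 623, 1165, 523, 93.0 and 599 CPM in wild-type tumours (log2 difference 2.11, SE 0.59, adjusted p = 0.0832). Il1a, which codes for its relative interleukin-1 alpha, averaged 508 ± 252 CPM in sash tumours and 99.1 ± 62.9 CPM in wild-type tumours (SD, n = 5 each; log2 difference 2.33, adjusted p = 0.0684). Csf2, for the growth factor GM-CSF, and Tnfrsf1b, for a receptor of tumour necrosis factor, had log2 differences of 2.40 (adjusted p = 0.0740) and 0.73 (adjusted p = 0.0684). Among 11 genes of NF-kappaB and pattern receptor signalling 0 were called and 6 were above 0 (median 0.01). Nfkbia, the inhibitor that NF-kappaB itself induces, stood at a log2 difference of 0.98 (adjusted p = 0.0684).

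Genes of the cells that carry CXCR2 gave a mixed picture in the tumours. Of 8 neutrophil markers on the panel, 7 were tested, 0 were called and 6 were above 0 (median 0.79). Fpr1, a receptor for bacterial formyl peptides, had 64.1, 71.2, 93.1, 120.4 and 96.1 CPM in sash tumours, against 27.1, 19.7, 24.1, 2.07 and 26.0 CPM in wild-type tumours (log2 difference 2.14, SE 0.49, adjusted p = 0.0684). These groups did not overlap. Csf3r, the receptor for the neutrophil growth factor G-CSF, averaged 160.5 ± 54.0 CPM in sash tumours and 85.3 ± 37.6 CPM in wild-type tumours (SD, n = 5 each), with overlap (log2 difference 0.89, SE 0.38, adjusted p = 0.212). The summed level of the neutrophil list was 17342 to 25354 CPM in sash tumours, against 18775 to 35189 CPM in wild-type tumours. Most of that sum is Ceacam1 and Cd177, which colon epithelium also expresses, so it does not follow neutrophils alone. Mpo, a defining enzyme of neutrophil granules, was at 0 in all but 1 tumour library of each genotype. Whether the number of neutrophils differed was not tested.

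Other genes of the CXCR2 family and of neutrophil entry were also read. Cxcr1, the gene of a related receptor, had 42 counts over the 5 sash tumours, against 9 counts over the 5 wild-type tumours. Ppbp, a platelet precursor of another CXCR2 ligand, averaged 315 ± 272 CPM in sash tumours and 119 ± 52.2 CPM in wild-type tumours (SD, n = 5 each; log2 difference 1.40, adjusted p = 0.174). Selp, which codes for the P-selectin on which neutrophils roll, had a log2 difference of 1.26 (SE 0.30, adjusted p = 0.0684). In the adhesion list 0 of 9 were called and 8 were above 0 (median 0.48), and among other neutrophil attractants and their receptors 0 of 8 were called and 6 were above 0 (median 1.3).

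Surface colonocyte markers also differed by value between the tumour groups: their 3 panel genes summed to 826 to 2612 CPM in sash tumours, against 1353 to 17023 CPM in wild-type tumours, with 0 of 3 called and a median log2 difference of -1.26. The mast cell list summed to 161 to 368 CPM in sash tumours, against 411 to 777 CPM in wild-type tumours. The part of either in the ligand levels was not tested.

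**Figure D3:**
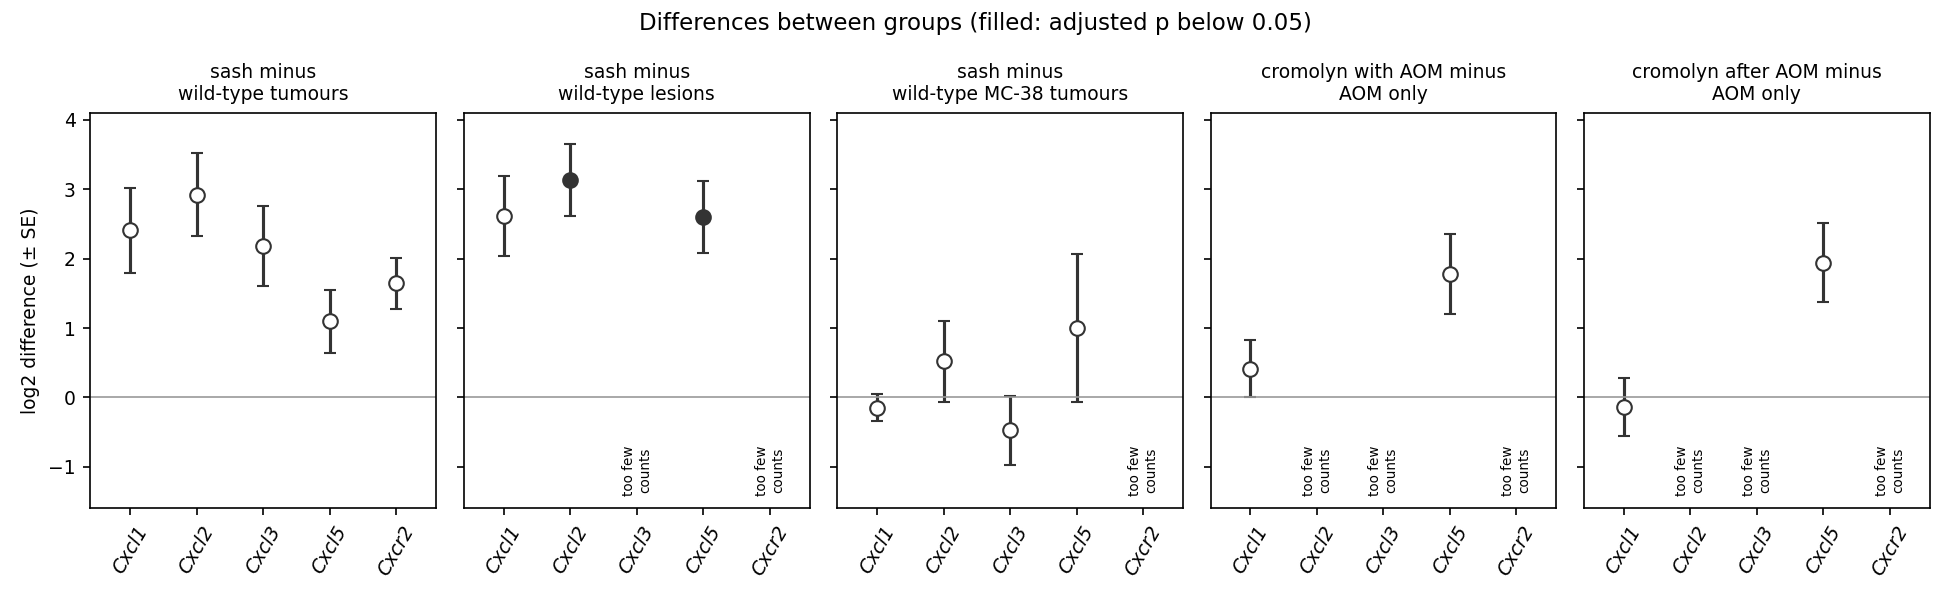
Log2 difference of each of the 5 genes in 5 comparisons, the group named first minus the other, with bars of 1 SE from edgeR's fit. The comparisons are sash minus wild type in AOM tumours, lesions and MC-38 tumours, and each cromolyn schedule minus AOM only. Filled points have an adjusted p below 0.05, and members too low to be tested are marked as having too few counts. The ligands that could be tested are above 0 in sash AOM tumours and in sash lesions.

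In the preneoplastic lesions 3 ligands were higher in sash mice, at levels far below those of sash tumours. For Cxcl1 the sash lesions (111 to 333 CPM) overlapped the wild-type tumours only through wild-type tumour 4, at 35.2 CPM. The other wild-type tumours lay above every sash lesion. The receptor was at the limit of what these libraries can show. Cxcl2 and Cxcl5 passed the test, and Cxcl1 lay at its threshold. Cxcl1 passed under 9 of 13 alternatives, among them a pairing of libraries of the same number that the labels do not state. That pairing called 10.8% of all genes tested, against 2.84% in the main fit. Cxcl3 and Cxcr2 had too few counts to be tested across genes.

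Cxcl2 had 19.7, 19.4 and 23.6 CPM in sash lesions, against 3.54, 1.51 and 1.88 CPM in wild-type lesions. All 3 sash libraries were above all 3 wild-type libraries, on 45 counts in sash lesions and 5 counts in wild-type lesions. The log2 difference was 3.14 (SE 0.52, adjusted p = 0.0157), and the ratio of pooled counts was 9.86, with an exact 95% interval of 3.93 to 31.8 for counting error.

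Cxcl5 had 259.5, 413 and 136 CPM in sash lesions, against 61.9, 19.7 and 48.0 CPM in wild-type lesions. The groups were separate, the lowest sash library being above the highest wild-type one. The log2 difference was 2.60 (SE 0.52, adjusted p = 0.0401), and the pooled ratio was 6.17 (4.97 to 7.72).

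Cxcl1 had 147, 333 and 111 CPM in sash lesions, against 54.8, 18.2 and 21.7 CPM in wild-type lesions. These groups were separate too, with a pooled ratio of 6.91 (5.32 to 9.10). The log2 difference was 2.62 (SE 0.58) with an adjusted p of 0.0508, and with the replicate number as a block it was 2.56 with an adjusted p of 0.0101.

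In the same paired fit Cxcl2 had an adjusted p of 0.0116 and Cxcl5 of 0.0104. The unpaired fit called 22 of 775 genes (2.84%), and 4 of these were higher in sash lesions (0.516%), Cxcl2 and Cxcl5 among them. The paired fit called 84 (10.8%). In the fit of all 25 libraries, which called 22 of 847 (2.6%), Cxcl1 and Cxcl5 passed and Cxcl2 did not (adjusted p = 0.0906). Groups without overlap, with the sash lesions above, were found for 10.1% of the tested genes. The calls rest on single libraries at this group size: without sash lesion 2, which was the highest in Cxcl1 and Cxcl5, no ligand passed and no gene of the panel did (0%), without sash lesion 3 Cxcl5 alone of the set did, with 1.65% of the genes tested, and without wild-type lesion 2 Cxcl2 alone did, with 2.02%.

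The other members gave a handful of counts. Cxcl3 had 0, 6 and 1 counts in sash lesions, against 3, 1 and 2 counts in wild-type lesions, a pooled ratio of 1.28 (0.368 to 4.61) and an exact two-sided permutation p of 0.8, where 0.1 is the smallest that 3 against 3 can give. Cxcr2 had 0, 2 and 0 counts in sash lesions, against 1, 0 and 0 counts in wild-type lesions (permutation p = 1). A difference of the receptor between these groups was not detectable at this depth.

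Set beside all 12 wild-type libraries of 14 weeks, cromolyn-treated ones included, all 3 sash lesions were the highest libraries for 2 ligands. Cxcl1 was at 111 to 333 CPM in sash lesions, against at most 56.8 CPM in any of the 12, and Cxcl2 was at 19.4 to 23.6 CPM, against at most 12.2 CPM. For Cxcl5 only 1 of 3 sash lesions was above all 12, whose highest value, 293 CPM, came from a mouse given cromolyn with AOM. In the 6 wild-type libraries without cromolyn Cxcl5 was at 19.7 to 61.9 CPM. Most of the 12 came from the cromolyn experiment, and 15.6% of the genes tested were called between wild-type lesions and its AOM only group. Against the libraries of that experiment, genotype and experiment cannot be told apart. The share of all genes with such a pattern is not given here.

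Around the ligands few other genes of their pathway passed the test in the lesions. Nfkbia rose, with a mean of 3012 CPM in sash lesions and 1635 CPM in wild-type lesions (log2 difference 0.85, SE 0.18, adjusted p = 0.0476), and it was the 1 gene called among 11 of NF-kappaB and pattern receptor signalling, of which 7 were above 0 (median 0.07, against 0.05 over all genes tested). Of 5 tested genes for cytokines that induce the ligands and for their receptors, 0 were called and 4 were above 0 (median 0.21). Tnf, for tumour necrosis factor, had a log2 difference of 1.11 (adjusted p = 0.203), and Il1b had one of 0.44 (adjusted p = 0.698). Of 4 tested neutrophil markers 0 were called and 1 was above 0 (median -0.47). In the adhesion list 0 of 8 were called and 3 were above 0 (median -0.39). Of 4 tested genes for other neutrophil attractants and their receptors, 0 were called and 2 were above 0 (median -0.07). Among these, the chemokine gene Ccl2 had a log2 difference of 1.35 (SE 0.35, adjusted p = 0.0790). All 3 sash lesions were above all wild-type lesions for Ccl2, as for 10.1% of the genes tested.

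Markers of other cells also moved between the lesion groups. Among surface colonocyte markers Tmigd1 and Emp1 fell in sash lesions, with log2 differences of -3.07 (adjusted p = 0.0157) and -2.74 (adjusted p = 0.0476), while the summed level of the 3 panel genes was 34715 to 63893 CPM in sash lesions, against 31615 to 50891 CPM in wild-type lesions. Of 4 tested B cell markers 3 fell, Ms4a1 among them, at a mean of 38.5 CPM in sash lesions and 581 CPM in wild-type lesions. Their part in the ligand difference was not tested.

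Tumours stood far above lesions in both genotypes, for the ligands and the receptor alike. All 5 genes passed in each comparison of stage. Tumour and lesion samples also differ in age (32 against 14 weeks), in AOM given (6 against 3 injections) and in time since AOM (18 against 3 weeks). None of these can be told apart from the stage.

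In wild-type mice, 314 of 848 genes were called between tumours and lesions (37%), and 19.5% of the tested genes were called as higher in tumours. Cxcl5 rose, with a log2 difference of 6.60 (SE 0.73, adjusted p = 1.83e-05) and a pooled ratio of 109 (89.1 to 134). Cxcl2 rose by 7.13 log2 units (SE 0.95, adjusted p = 7.97e-05), at a pooled ratio of 165 (70.5 to 509). Cxcl3 rose by 5.89 log2 units (SE 0.99, adjusted p = 0.000499), at a pooled ratio of 69.4 (31.7 to 190). All 5 wild-type tumours were above all 3 wild-type lesions for these 3 ligands and for the receptor, a pattern that 16.7% of the tested genes had. Cxcl1 had the smallest step, 3.59 log2 units (SE 0.80, adjusted p = 0.00345, pooled ratio 14.3 with an interval of 11.1 to 18.5), and 4 of 5 tumours were above all lesions, because wild-type tumour 4 had 35.2 CPM and wild-type lesion 1 had 54.8 CPM. Cxcr2 rose by 7.15 log2 units (SE 0.90, adjusted p = 4.53e-05).

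In sash mice, 403 genes were called (47.5%), and 23.9% of the tested genes as higher in tumours. Cxcl3 rose by 7.85 log2 units (SE 1.00, adjusted p = 3.59e-05) and Cxcl2 by 6.90 log2 units (SE 0.79, adjusted p = 1.27e-05), with pooled ratios of 266 (129 to 663) and 136 (101 to 186). Cxcl5 rose by 5.12 log2 units (SE 0.66, adjusted p = 3.75e-05), at a pooled ratio of 40.4 (37.2 to 44), and Cxcl1 by 3.39 log2 units (SE 0.75, adjusted p = 0.00206), at a pooled ratio of 11.7 (10.6 to 13). Cxcr2 rose by 7.95 log2 units (SE 0.83, adjusted p = 1.01e-05). All 5 sash tumours were above all 3 sash lesions for each of the 5 genes, as for 27.5% of the genes tested. Cxcl1 again had the smallest step.

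Most counts of the receptor in the AOM experiments came from the tumours. Over the 10 tumour libraries Cxcr2 gave 1993 counts, against 12 counts over the 15 libraries of 14 weeks, of which 7 were at 0. A count of 0 allows up to 2.61 to 6.67 CPM, depending on the library. The highest of those 15 libraries, 1 given cromolyn with AOM, was at 7.66 CPM, and the lowest tumour was at 30.0 CPM. The pooled ratio of tumours to lesions was 313 (86.5 to 2587) in sash mice and 212 (37.8 to 8380) in wild-type mice, and these wide intervals come from 2 counts in sash lesions and 1 count in wild-type lesions.

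The ligands differed in how far they could be followed outside the tumours. Over the 10 tumours, the 15 libraries of 14 weeks and the 9 MC-38 libraries, Cxcl5 gave 77419, 1215 and 1002 counts, Cxcl1 gave 14231, 632 and 2511 counts, Cxcl2 gave 17179, 73 and 1035 counts, and Cxcl3 gave 5547, 20 and 274 counts. Cxcl2 and Cxcl3 gave few counts at 14 weeks, while Cxcl1 and Cxcl5 could be measured in every library. For each count of Cxcl1 there were 0.831 to 2.10 counts of Cxcl2 in sash tumours and 0.618 to 1.12 in wild-type tumours, against 0.0583 to 0.213 in sash lesions and 0.0645 to 0.0870 in wild-type lesions. The Cxcl5 to Cxcl1 ratio was 1.22 to 1.77 in sash lesions and 1.08 to 2.22 in wild-type lesions, against the tumour values of 2.31 or more given above.

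**Figure D4:**
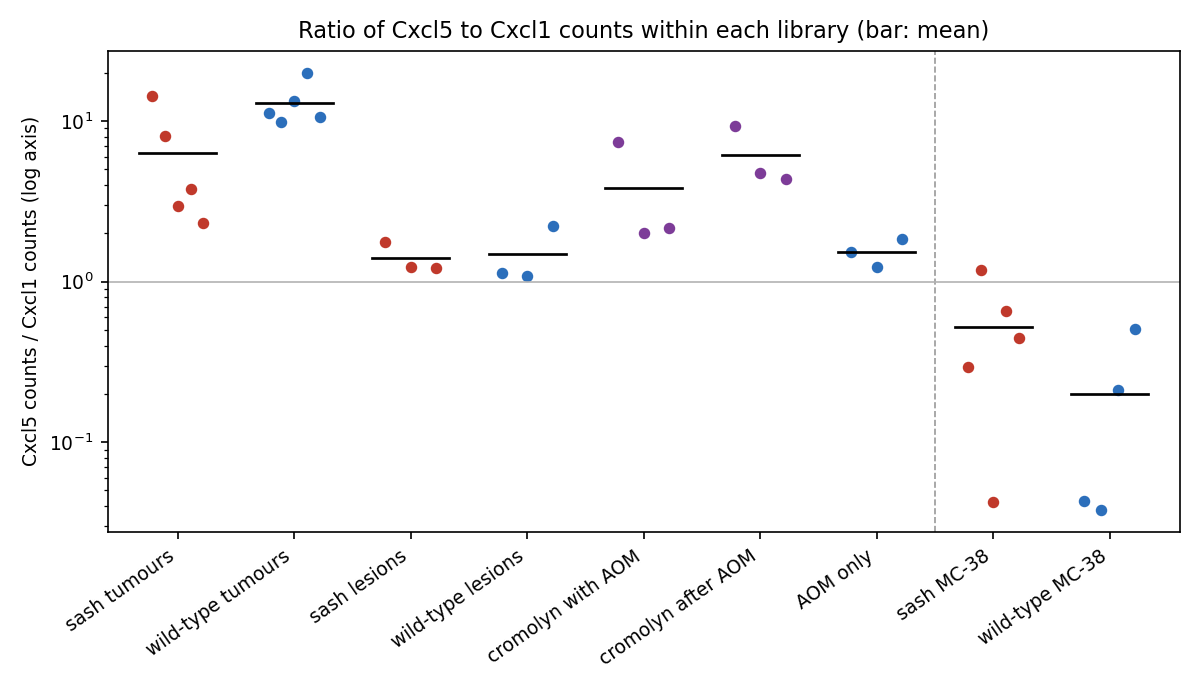
Counts of Cxcl5 for each count of Cxcl1 in every library, on a log axis, by group. Wild-type tumours lie at 9.87 to 20.1, sash tumours spread from 2.31 to 14.3, lesions and AOM only colon lie at 1.08 to 2.22, and 8 of 9 MC-38 tumours lie below 1.

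Many other genes of neutrophil recruitment rose with the stage as well. Of all genes tested, 23.9% were called as higher in tumours in sash mice and 19.5% in wild-type mice. Of 8 tested genes for other neutrophil attractants and their receptors, 6 rose and 1 fell in each genotype. The chemokine gene Ccl5 fell, with log2 differences of -2.49 in sash mice (adjusted p = 0.000509) and -1.51 in wild-type mice (adjusted p = 0.0181). In sash mice 5 of 7 tested neutrophil markers rose and 1 fell, and in wild-type mice 5 rose and 2 fell. Csf3r rose by 4.24 in sash mice and by 3.82 in wild-type mice, and Fpr1 by 5.16 in sash mice and by 4.35 in wild-type mice, on the log2 scale. Ceacam1, which colonocytes share, fell by 1.46 log2 units in sash mice and by 1.45 in wild-type mice. Of 10 tested genes for cytokines that induce the ligands and for their receptors, 6 rose in sash mice and 5 rose in wild-type mice. Il1b rose by 4.97 log2 units in sash mice and by 3.29 in wild-type mice, and Il1a by 6.11 in sash mice and by 3.43 in wild-type mice. Selp rose by 3.56 log2 units in sash mice, where 8 of 9 adhesion genes rose, and by 2.58 in wild-type mice, where 4 of 9 rose. Ppbp, the platelet ligand, rose by 6.01 log2 units in sash mice and by 4.59 in wild-type mice. Surface colonocyte markers moved the other way in these samples, at a summed 826 to 2612 CPM in sash tumours, against 34715 to 63893 CPM in sash lesions, and at 1353 to 17023 CPM in wild-type tumours, against 31615 to 50891 CPM in wild-type lesions. The part of tissue make-up in these differences was not tested.

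Whether the effect of the sash genotype differed between tumours and lesions was tested directly. None of the 848 genes was called (0%) by edgeR, with 128 at an unadjusted p below 0.05 and 21 called by DESeq2. The difference of the log2 differences, tumours minus lesions, was -0.21 (SE 0.95, adjusted p = 0.931) for Cxcl1, -0.23 (SE 1.04, adjusted p = 0.931) for Cxcl2 and -1.49 (SE 0.77, adjusted p = 0.362) for Cxcl5. It was 1.95 (SE 1.63, adjusted p = 0.587) for Cxcl3 and 0.80 (SE 2.57, adjusted p = 0.899) for Cxcr2, where the few lesion counts leave wide errors. The genotype effect was therefore not shown to differ between stages for any of the 5 genes, nor was it shown to be alike.

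**Figure D5:**
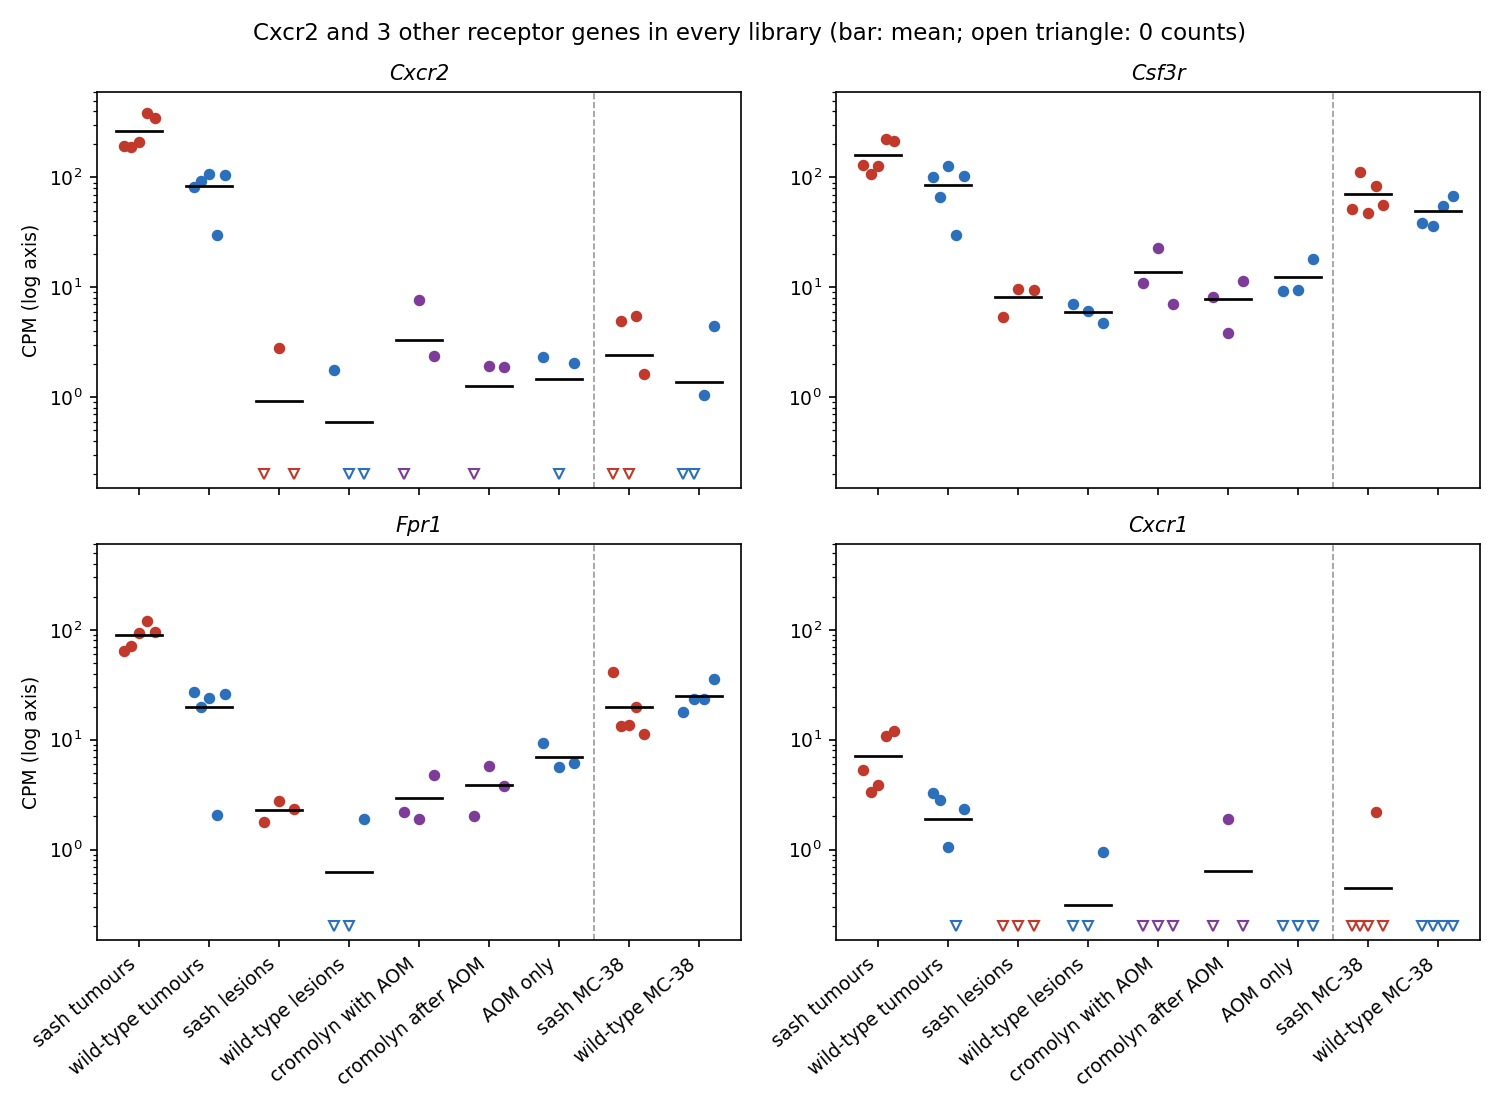
Level of Cxcr2 and of 3 other receptor genes, Csf3r, Fpr1 and Cxcr1, in each library of the 9 groups, in CPM on a log axis, with a bar at the group mean and open triangles for 0 counts. Csf3r and Fpr1 are present in MC-38 tumours, in which Cxcr2 gave 13 counts in all.

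Cromolyn was given to wild-type mice to act on mast cells with drug in place of mutation, either with AOM or after it. No gene of the CXCR2 set passed against AOM only, and Cxcl5 had larger log2 differences than Cxcl1, the other member with enough counts to be tested. Both comparisons use the same 3 AOM only libraries.

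Cxcl5 had 293, 65.1 and 123 CPM with cromolyn given together with AOM, against 60.7, 50.8 and 26.4 CPM with AOM only. With cromolyn after AOM it had 267, 164 and 109 CPM. All 6 cromolyn libraries were above all 3 AOM only libraries, by a narrow margin for the library at 65.1 CPM. In each comparison 13.8% of the tested genes had such a separation. The log2 difference was 1.78 (SE 0.57, adjusted p = 0.169) for cromolyn with AOM and 1.94 (SE 0.57, adjusted p = 0.0893) for cromolyn after AOM. DESeq2 called both, with adjusted p-values of 0.0179 and 0.00536, among 40 of 941 genes (4.25%) for cromolyn with AOM and 50 of 941 (5.31%) for cromolyn after AOM. Leaving out the first or the second library of cromolyn with AOM, which shares the fit, brought the edgeR value for cromolyn after AOM to 0.0311 and 0.0393, where 5.17% and 5.28% of the genes tested were called.

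Cxcl1 had 39.6, 32.5 and 56.8 CPM with cromolyn given together with AOM, against 39.7, 41.4 and 14.2 CPM with AOM only (log2 difference 0.41, SE 0.41, adjusted p = 0.603). With cromolyn after AOM it had 28.5, 34.3 and 24.8 CPM (log2 difference -0.14, SE 0.42, adjusted p = 0.866). The 3 groups overlapped. Counts of Cxcl5 were 2 to 7.39 times those of Cxcl1 with cromolyn given together with AOM and 4.38 to 9.36 times with cromolyn after AOM, against 1.23 to 1.86 times with AOM only. The share of Cxcl5 among ligand counts was 65% to 85.3% with cromolyn given together with AOM and 77.0% to 85.6% with cromolyn after AOM, against 54% to 61.9% with AOM only.

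The remaining members had few counts in this experiment. Cxcl2 had 4, 1 and 3 counts with cromolyn given together with AOM and 6, 3 and 2 counts with cromolyn after AOM, against 2, 1 and 1 counts with AOM only. The pooled ratios to AOM only were 2.14 (0.574 to 9.72, exact permutation p = 0.3) and 2.76 (0.818 to 11.9, exact permutation p = 0.2), both two-sided with a smallest possible p of 0.1. Cxcl3 had 1, 0 and 1 counts with cromolyn given together with AOM and 2, 1 and 2 counts with cromolyn after AOM, against 0 in each AOM only library, where a total of 0 allows up to 1.99 CPM over the group. Cxcr2 had 0, 4 and 1 counts with cromolyn given together with AOM and 0, 1 and 1 counts with cromolyn after AOM, against 1, 0 and 1 counts with AOM only. None of these is a detectable difference at this depth.

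Over the panel, edgeR called 2 of 768 genes for cromolyn with AOM (0.26%) and 37 for cromolyn after AOM (4.82%), of which 2.34% of the tested genes as higher. Groups without overlap, with cromolyn above, were found for 13.8% of the genes in either comparison. Between the cromolyn schedules 0 of 768 genes were called (0%), with 64 at an unadjusted p below 0.05 and 6 called by DESeq2, and the log2 difference of after minus with was -0.55 (SE 0.41, adjusted p = 0.719) for Cxcl1 and 0.16 (SE 0.52, adjusted p = 0.978) for Cxcl5. Markers of other cells also differed by value. All 4 tested B cell markers were above 0 in both comparisons, with 0 called and median log2 differences of 2.18 for cromolyn with AOM and 2.13 for cromolyn after AOM. The 5 B cell genes on the panel summed to 387 to 1809 CPM with cromolyn given together with AOM and 273 to 1632 CPM with cromolyn after AOM, against 120.4 to 294 CPM with AOM only. Of 3 tested fibroblast markers 0 were called and 1 was above 0 in either comparison. For cromolyn after AOM, Col3a1 had a log2 difference of -0.63 (adjusted p = 0.0525) and Pdgfrb one of -0.65 (adjusted p = 0.0597). Fap had one of 0.16 (adjusted p = 0.791). Surface colonocyte markers did not move as 1 group. Car4 had log2 differences of -0.97 for cromolyn with AOM and -1.25 for cromolyn after AOM, and neither passed (adjusted p = 0.314 and 0.153). Emp1 rose after cromolyn (log2 difference 1.07, adjusted p = 0.0257), where Tmigd1 had a value of 0.49 (adjusted p = 0.135), and in cromolyn with AOM 0 of the 3 were called or above 0. Car4 makes up most of their summed level, which was 13341 to 34470 CPM with cromolyn given together with AOM and 10872.5 to 25250 CPM with cromolyn after AOM, against 32524 to 45568 CPM with AOM only. The part of these markers in the Cxcl5 values was not tested.

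Wild-type lesions and AOM only colon have the same labelled treatment and age, and they served as a check between experiments. The log2 difference, lesions minus AOM only, was -0.09 for Cxcl1 (SE 0.54, adjusted p = 0.927) and -0.13 for Cxcl5 (SE 0.47, adjusted p = 0.875), while 119 of 762 genes were called over the panel (15.6%). Cxcl1 averaged 31.6 ± 20.2 CPM in wild-type lesions and 31.8 ± 15.2 CPM with AOM only (SD, n = 3 each). Cxcl5 averaged 43.2 ± 21.5 CPM in wild-type lesions and 46.0 ± 17.7 CPM with AOM only.

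In MC-38 tumours, which were tested only against each other, the ligands were present and none of them differed between hosts beyond the spread. Their CPM values were scaled within their own table, so a level cannot be set exactly against those of the AOM experiments. Of 714 genes tested 9 were called (1.26%), and none of these was a member of the set.

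Cxcl1 had 429, 382, 319, 422 and 394 CPM in sash MC-38 tumours, against 378, 343, 367 and 617 CPM in wild-type MC-38 tumours (log2 difference -0.14, SE 0.19, adjusted p = 0.667). The groups overlapped, and the sash values spanned a narrow range. Cxcl2 had 142, 295, 69.6, 274 and 179 CPM in sash MC-38 tumours, against 35.7, 136, 70.7 and 291 CPM in wild-type MC-38 tumours (log2 difference 0.52, SE 0.59, adjusted p = 0.624). Cxcl3 had 30.8, 44.8, 27.2, 26.6 and 59.8 CPM in sash MC-38 tumours, against 11.4, 88.1, 30.6 and 76.1 CPM in wild-type MC-38 tumours (log2 difference -0.47, SE 0.50, adjusted p = 0.603). Cxcl5 varied most between libraries of a host, with 125, 449.8, 13.6, 278 and 176 CPM in sash MC-38 tumours, against 16.2, 12.9, 78.1 and 311 CPM in wild-type MC-38 tumours (log2 difference 1.00, SE 1.06, adjusted p = 0.605). Its SE was the largest of the 4, so a difference of several fold in either direction could be missed.

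Cxcr2 gave 0, 3, 0, 5 and 1 counts in sash MC-38 tumours, against 0, 0, 1 and 3 counts in wild-type MC-38 tumours. The pooled ratio was 2.17 (0.605 to 9.64) and the exact two-sided permutation p was 0.524, where 0.0159 is the smallest possible. The receptor was near the floor in these allografts. Mpo was at 0 in every MC-38 library of both hosts, and Cxcr1 was at 0 in every wild-type one. Some other genes of myeloid cells were read above the floor, with Fpr2 chosen after its values were seen. Levels of different genes cannot be set against each other, so these values do not show how the receptor compares with them. Csf3r averaged 70.2 ± 27.1 CPM in sash MC-38 tumours (SD, n = 5) and 49.3 ± 14.5 CPM in wild-type MC-38 tumours (SD, n = 4), and Fpr2, another formyl peptide receptor, averaged 844 ± 257 CPM in sash MC-38 tumours and 958.5 ± 365 CPM in wild-type MC-38 tumours. Of 6 tested neutrophil markers 0 were called and 3 were above 0 (median 0.22).

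The ligand counts of MC-38 tumours were made up in another way than those of AOM tumours. Cxcl1 held 32.6% to 74.3% of ligand counts in sash MC-38 tumours, against 47.6% to 85.7% in wild-type MC-38 tumours, and Cxcl5 held 3.16% to 38.4% in sash MC-38 tumours, against 2.23% to 24.0% in wild-type MC-38 tumours. These shares are taken within a library, so the separate scaling does not touch them. All 4 ligands together made 0.0456% to 0.121% of panel counts in sash MC-38 tumours, against 0.0429% to 0.130% in wild-type MC-38 tumours.

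Ordered by mean level over the 7 groups of the AOM experiments, all 5 genes had sash tumours first and wild-type tumours next. For Cxcl1 the order went on with sash lesions, which overlapped the wild-type tumours through wild-type tumour 4 alone. Cromolyn with AOM, AOM only, wild-type lesions and cromolyn after AOM followed, and neighbours among these overlapped. For Cxcl2, sash tumours, wild-type tumours and sash lesions did not overlap, and the remaining groups had 12.2 CPM or less and overlapped. For Cxcl5, sash lesions came next, below all wild-type tumours, and were followed by cromolyn after AOM and cromolyn with AOM, then by AOM only and wild-type lesions. For Cxcr2 every group after the tumours was at 7.66 CPM or less.

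Likeness between genes was described by the Pearson correlation of log2 CPM, centred on the group means, over the 25 libraries of the AOM experiments, among 805 genes with a mean of at least 10 counts. The libraries share their depth and the TMM scaling between genes, so the values are given without a p. Cxcl1, Cxcl2 and Cxcl3 had one another as their closest genes, with r of 0.88 between Cxcl1 and Cxcl3, 0.84 between Cxcl2 and Cxcl3 and 0.80 between Cxcl1 and Cxcl2. Much of this rests on wild-type tumour 4, and without it the values were 0.68, 0.50 and 0.49. The next on their lists were Il1b for Cxcl1 (0.79, and 0.57 without that tumour), Ch25h, a cholesterol hydroxylase of activated macrophages, for Cxcl2 (0.79 and 0.63) and Csf2rb, the shared receptor chain for GM-CSF and interleukin-3, for Cxcl3 (0.79 and 0.46). Cxcl5 was closest to Cxcl2 (0.76, and 0.49 without the tumour), Cxcl3 (0.75 and 0.45) and Arg1, the arginase of myeloid cells (0.75 and 0.49). Cxcr2 was closest to Csf3r (0.69, and 0.55 without the tumour), then to Clcf1, a cytokine of the interleukin-6 family (0.61 and 0.59), and to Cxcl1 (0.60 and 0.36). The closest genes themselves changed without tumour 4: Cxcl3 remained closest to Cxcl1, but Tnf led for Cxcl2 (0.65), Ccl3, a chemokine of macrophages, for Cxcl3 (0.76) and Tnfrsf8, the gene of the receptor CD30, for Cxcl5 (0.70). Clcf1 and Csf3r were the 2 closest to Cxcr2 with and without it. The r of Cxcr2 with Cxcl2 and Cxcl5 was 0.38 and 0.19 over all 25 libraries, and -0.0934 and -0.28 without tumour 4.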

How the data were processed

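RNA was read with the QIAseq Targeted RNA Mouse Immuno-Oncology panel on a MiSeq, per the labels' protocols, which amplifies a short stretch of each transcript, so levels of different genes cannot be compared. The authors deposited whole-number counts per gene in a table of 25 AOM libraries and one of 9 MC-38 libraries, each with 993 entries, of which 5 control entries were 0 in all libraries and were left out. The submitters' processing notes name mm9 and DESeq2. For the aligner and the unit counted (reads or tagged molecules) nothing is stated in those notes or labels, and intervals and floors (3 counts) therefore cover counting error only. Labelled MC-38 samples of wild-type replicate 2 and sash replicate 3 were not analysed here. Labels do not say that samples came from separate mice, so p-values measure the spread between these samples only. Library totals ran from 449880 to 1264354 counts.

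Groups came from the labels. Counts were tested with edgeR 4.0.16 in R 4.3.3 (TMM scaling, filterByExpr at a minimum count of 10 and a total of 15, robust quasi-likelihood test), with Benjamini-Hochberg adjustment over all genes tested and a threshold of 0.05. Tumours, lesions and MC-38 tumours were fitted separately, the 3 cromolyn groups together, and tumours with lesions together for stage. CPM use TMM factors over a whole table and are scaled apart for MC-38. An SE is the log2 difference over the square root of the F statistic and is unreliable near 0. Members under the filter were tested by exact permutation of log2 CPM. Ratios pool counts over totals with exact 95% intervals.

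Same-numbered lesion libraries deviated together (r of 0.161 to 0.514 over the 3 pairs). A fit that pairs them by number was therefore added, and the blocked value is given where it changes a call. The labels do not state that these libraries are paired. No other comparison between genotypes or treatments had every pair above 0.1. Replicates differed beyond sampling noise (chi-square per degree of freedom 5.85 to 194 over 51 pairs).

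All 5 members are named in every comparison, with up to 4 genes of smallest adjusted p from each pathway or marker list described and the 3 genes most like each member. Genes outside that rule (Mpo, Cxcr1, Epcam, Kit and Cpa3 as checks, Fpr2 in MC-38 tumours, Ceacam1 in the sash stages, Ccl5 in the stages) were chosen after their values were seen. The members and lists were chosen with earlier results of these data known. The fits were tested on simulated counts. Alternatives were DESeq2 1.42.0, RLE factors, library totals, housekeeping scaling, no filter, 1 fit of all AOM libraries, the replicate block and leaving out each replicate.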

Additional observations from a re-analysis of the deposited data

Results flagged for a closer look

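Of 20 sets of 4 or 5 libraries (5 genes in 4 groups) tested for a value far from the rest, 1 held such a value, and chance marks about 1 set in 20. Wild-type MC-38 tumour 5 had 617 CPM of Cxcl1, where the remaining 3 of that group had 343 to 378 CPM, so that the gap to the next library was 0.873 of the whole range, above the limit of Dixon's test. The same library was also the highest of its group in Cxcl2 (291 CPM), Cxcl5 (311 CPM) and Cxcr2 (3 counts), but not in Cxcl3 (76.1 CPM, against 88.1 CPM in replicate 3). Without it the log2 difference of Cxcl1 between sash and wild-type MC-38 tumours was 0.0903 in place of -0.14, and neither value passed the test.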

How the results depend on the processing

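The steps between stages passed for all 5 genes in each of 24 alternatives per genotype. None of the 5 genes passed in any alternative for MC-38 tumours or for the difference of genotype effects. The same held for wild-type lesions against AOM only and between the cromolyn schedules. Other genes of the panel did pass in some of these alternatives, as counted below. Between sash and wild-type tumours the number of genes of the set called was 0, where 0% of all genes tested were called. It was 4 with DESeq2 (8.67% of all genes tested) and 4 in the fit of all 25 libraries (10.4%). With each replicate left out in turn it was 0 to 4, and without wild-type tumours 2 and 4 it was 2. That last setting was added after seeing the data, since tumour 2 held 249 CPM of the B cell gene Ms4a1 and tumour 4 much Car4. In lesions the count was 2, and 0 to 3 with each replicate left out. Scaling by RLE factors, library totals or housekeeping genes, no filter, DESeq2 and the replicate block each gave 3, adding Cxcl1. The block called 10.8% of all genes tested, against 2.84% in the main fit, and DESeq2 and the unfiltered fit also called more genes. The fit of all 25 libraries (2.6%) called Cxcl1 and Cxcl5 but not Cxcl2. For cromolyn with AOM the count of the set was 0, against 1 (Cxcl5) with DESeq2 (4.25% of all genes tested). For cromolyn after AOM the count was also 0, against 1 (Cxcl5) with DESeq2 (5.31%). It was 1 with the replicate block (adjusted p = 0.0352 by edgeR) and 0 to 1 with each replicate left out. The cause was not tested.

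The replicate block changed no other call of the set than those of Cxcl1 in lesions and Cxcl5 after cromolyn. Every same-numbered pair correlated above 0.1 in lesions only. In tumours the correlations of same-numbered libraries ran from -0.374 to 0.235.

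Signs of log2 differences turned only near 0 or on few counts, none of them called. Without wild-type tumour 4, a setting chosen after seeing the data, the correlation of Cxcr2 turned to -0.0934 with Cxcl2 and to -0.28 with Cxcl5. With each library left out in turn, Cxcl1 in cromolyn after AOM minus AOM only ran from -0.50 to 0.0965, Cxcl5 in cromolyn after minus with AOM from -0.23 to 0.94, and Cxcl1 in MC-38 tumours from -0.22 to 0.0903. In the difference of genotype effects Cxcl1 ran from -0.85 to 0.37 and was 0.0244 with the replicate block, Cxcl2 ran from -0.66 to 0.0097 and Cxcr2 from -1.41 to 3.83. In wild-type lesions minus AOM only, Cxcl1 ran from -0.71 to 0.18 and Cxcl5 from -0.45 to 0.21. Of the other values for single genes 617 kept their direction and their side of the threshold, 30 passed newly and 5 no longer passed. Over the panel, the count for tumours was 0, against 82 with DESeq2, 88 in the fit of all 25 libraries and 2 with library totals. For lesions it was 22, against 68 with DESeq2, 84 with the block and 36 unfiltered. For cromolyn with AOM it was 2, against 40, 18, 7, 0 and 0 with DESeq2, library totals, the block, the fit of all libraries and housekeeping scaling. For cromolyn after AOM it was 37, against 50, 21, 0 and 1 with DESeq2, the block, the fit of all libraries and housekeeping scaling, and between schedules 0, against 6 with DESeq2 and 3 with library totals. For MC-38 tumours it was 9, against 35, 49 and 3 with DESeq2, housekeeping scaling and the block. Housekeeping scaling gave 172 in place of 314 for the wild-type stages and 199 in place of 119 for wild-type lesions against AOM only, and the fit of all libraries gave 4 in place of 0 for the difference of genotype effects. That scaling shifted the median of all genes by -0.42 to -0.11 in 6 comparisons, and library totals shifted it by 0.12 to 0.22 in 3.

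Depth limits Cxcr2 outside the AOM tumours and Cxcl3 at 14 weeks, where each library holds 0 to 6 counts, and Cxcl2 in the wild-type groups of 14 weeks.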
